A study of Homo sapiens with 5 samples.

Results

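The chaperonin genes examined here are the 8 subunit genes of TRiC (TCP1, CCT2, CCT3, CCT4, CCT5, CCT6A, CCT7 and CCT8) and the 2 genes of the mitochondrial chaperonin, HSPD1 and HSPE1. They were taken as a fixed list of names, 10 of 20033 protein-coding genes, and all 10 were found in GENCODE 44 on GRCh38. All peaks were collected from 5 kb upstream of each gene to its end. HSPD1 and HSPE1 are read outward from one shared promoter, so the 10 genes have 9 promoter sites.

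The data are CUT&RUN peak lists from OVCAR8, an established human ovarian carcinoma cell line that the study selected because HSF1 and MYC are both amplified in it. In CUT&RUN an antibody guides a nuclease to a DNA-bound protein, and the released DNA fragments are sequenced. The cells were untreated, kept proliferating in DMEM with serum, and fixed with 1% formaldehyde for 1 minute, with 500000 cells per reaction. There were 2 HSF1 libraries, 2 MYC libraries and 1 IgG library, and the deposited lists hold the peaks of each antibody library over 1 IgG library, the same in all 4. Each antibody library kept between 8265647 and 10084407 fragments after filtering. HSF1 was called at a p-value threshold of 1e-04 and MYC at the stricter 1e-10. The lists held 6477 and 4492 peaks for HSF1 and 25646 and 13290 for MYC. The labels do not say whether the replicates came from separate cultures. All results come from 1 cell line, and the lists hold no expression values against which the labelled epithelial identity could be checked.

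Chaperonins are barrel-shaped machines that enclose an unfolded protein and let it fold in isolation. TRiC, in the cytosol, is built of a pair of stacked rings that each hold 1 copy of 8 related subunits, and it is best known for folding actin and tubulin. HSPD1 (HSP60) forms the barrel of the mitochondrial matrix and HSPE1 (HSP10) its lid. HSF1 is the transcription factor of the heat shock response. It binds the heat shock element as a trimer, with 1 GAA unit for each partner in alternating orientation. MYC binds the E-box together with MAX and occupies the promoters of many active genes.

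For each of the 6 promoter sites with a heat shock element in its HSF1 peak, the element nearest to the HSF1 summits, or the exact one where there is one, is printed first, because it shows which sites carry the sequence that HSF1 recognizes. The HSPD1/HSPE1 peak also held elements with 1 mismatch that are not printed, at the end of the exact run and in HSPE1 intron 1. The search letters were GAANNTTCNNGAA on both strands, allowing overlaps. Each line holds 30 bases of GRCh38, read 5′ to 3′ on the strand given, and capitals mark the bases of the element or of overlapping elements. The first 3 lines match exactly, and the last 3 differ from the search letters at 1 of the 9 fixed bases.
HSPD1/HSPE1 shared promoter, chr2:197500062-197500091, plus strand: gctcggTTCCAGAACTTTCCAGAAaatgcc
CCT4 exon 1, chr2:61888595-61888624, minus strand: gccgctTTCTGGAAGGTTCGTGAAggcagt
CCT8 intron 1, chr21:29073388-29073417, minus strand: gggggaagaGAAGATTCCAGAAagggaggt
CCT3 exon 1, chr1:156338223-156338252, minus strand: gttctctctCTCCAGAAGGTTCtgccggtt
CCT5 upstream of exon 1, chr5:10250164-10250193, plus strand: gccgccgaTTCCAGAAGATACtgtctggcg
CCT6A across the start, chr7:56051748-56051777, plus strand: gacgggccGACTTTTCCAGAAgacccggat

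The elements at HSPD1/HSPE1 and at CCT4 are runs of 4 exact units, which hold 2 overlapping matches each, and the element at CCT8 has 3 units. Of the 8 promoter sites with HSF1 peaks in both replicates, 3 held an exact element and 6 held one with up to 1 mismatch. Among all 2141 reproducible HSF1 peaks, defined as merged intervals that hold a peak of each replicate, 25.2% held an exact element and 55.1% one with up to 1 mismatch. The peaks of the chaperonin genes were wider, with a median of 1128 bp against 546 bp for all of these peaks, and a wider peak has more room for a match. TCP1 and CCT7 had no match, even with 1 mismatch, and other forms of the element were not searched. The exact element is rare at promoters in general. Of 34796 distinct RefSeq promoter sequences (GRCh38.p14, 250 bases before to 50 after a start), 0.491% held it and 6.23% held it with up to 1 mismatch. That table matched 9 of the 10 genes, all but CCT6A, and only an HSPD1 promoter held exact matches within its 300 bases. The exact elements of CCT4 and CCT8 lay partly or wholly past the downstream end of these sequences.

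HSF1 was found at nearly every chaperonin gene. HSF1 replicate 1 had a peak in the window of 9 of 10 genes, against 16.5% of all protein-coding genes, and replicate 2 in that of 10 of 10, against 12.3%. A reproducible HSF1 peak lay in the window of 9 genes, against 6.41% of protein-coding genes, and at 8 of the 9 promoter sites. In both replicates the summits of these 9 genes lay within 1 kb of the canonical transcription start, a position held by 2.44% of protein-coding genes. CCT2 was the exception. A peak missing from a list means that none was called at that depth and threshold.

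MYC was found at all of them. Both MYC lists had a peak in each of the 10 windows, against 63.3% of protein-coding genes for replicate 1 and 46.2% for replicate 2. A reproducible MYC peak lay in 10 windows, against 44.6% in the background, and its summits were within 1 kb of the start at all 10 genes, against 35.4%. At 9 of 10 genes reproducible peaks of HSF1 and MYC had 1 bp or more in common, against 3.65%. The same 9 genes had a summit within 1 kb of the start in all 4 lists, as did 2.09% of protein-coding genes. Both backgrounds are limited by how few genes had HSF1. Of the 1285 protein-coding genes with a reproducible HSF1 peak in the window, 732 had the overlap with MYC. At the start, 488 genes had HSF1 summits in both replicates and 418 had summits in all 4 lists. Sharing with MYC was thus common at HSF1 promoter sites in general.

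**Figure D1:**
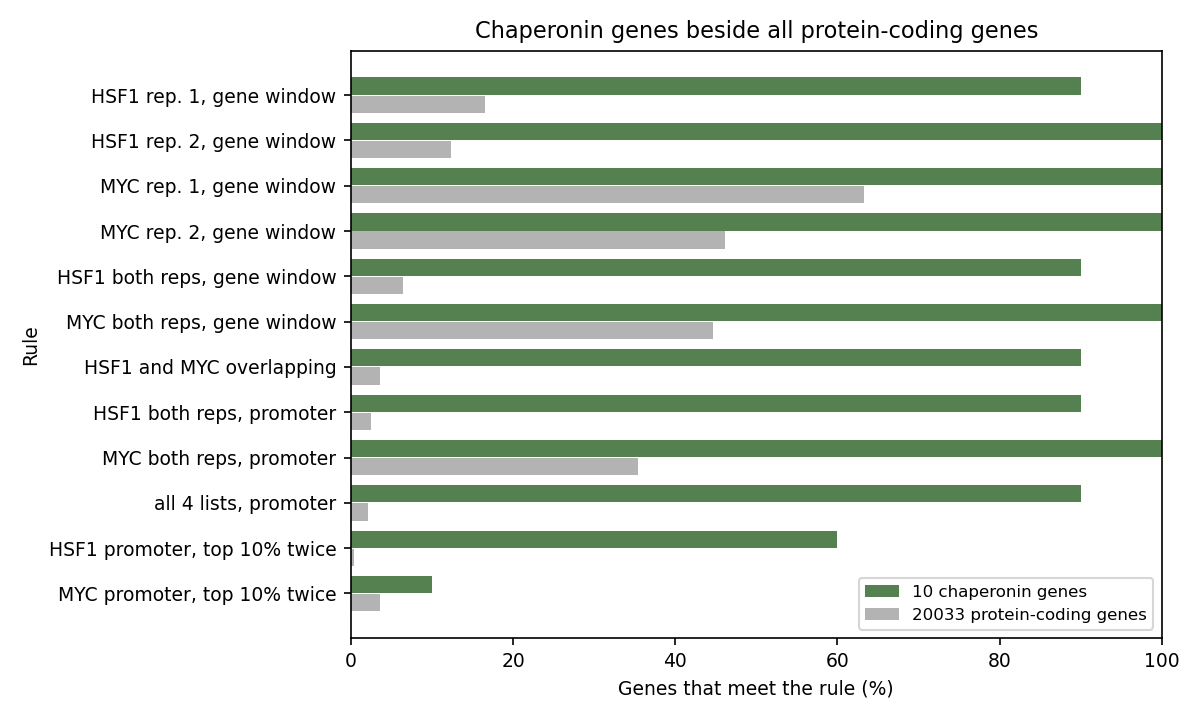
Share of genes, in percent on the x axis, that meet each rule on the y axis, for the 10 chaperonin genes (green) and all 20033 protein-coding genes (gray). The gene window runs from 5 kb upstream to the gene end, and promoter means summits within 1 kb of the canonical start. The top 10% rules were chosen after the values were seen. The green bars are longer for each rule, and the gray bars of the MYC window rules are the longest of the background.

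**Figure D2:**
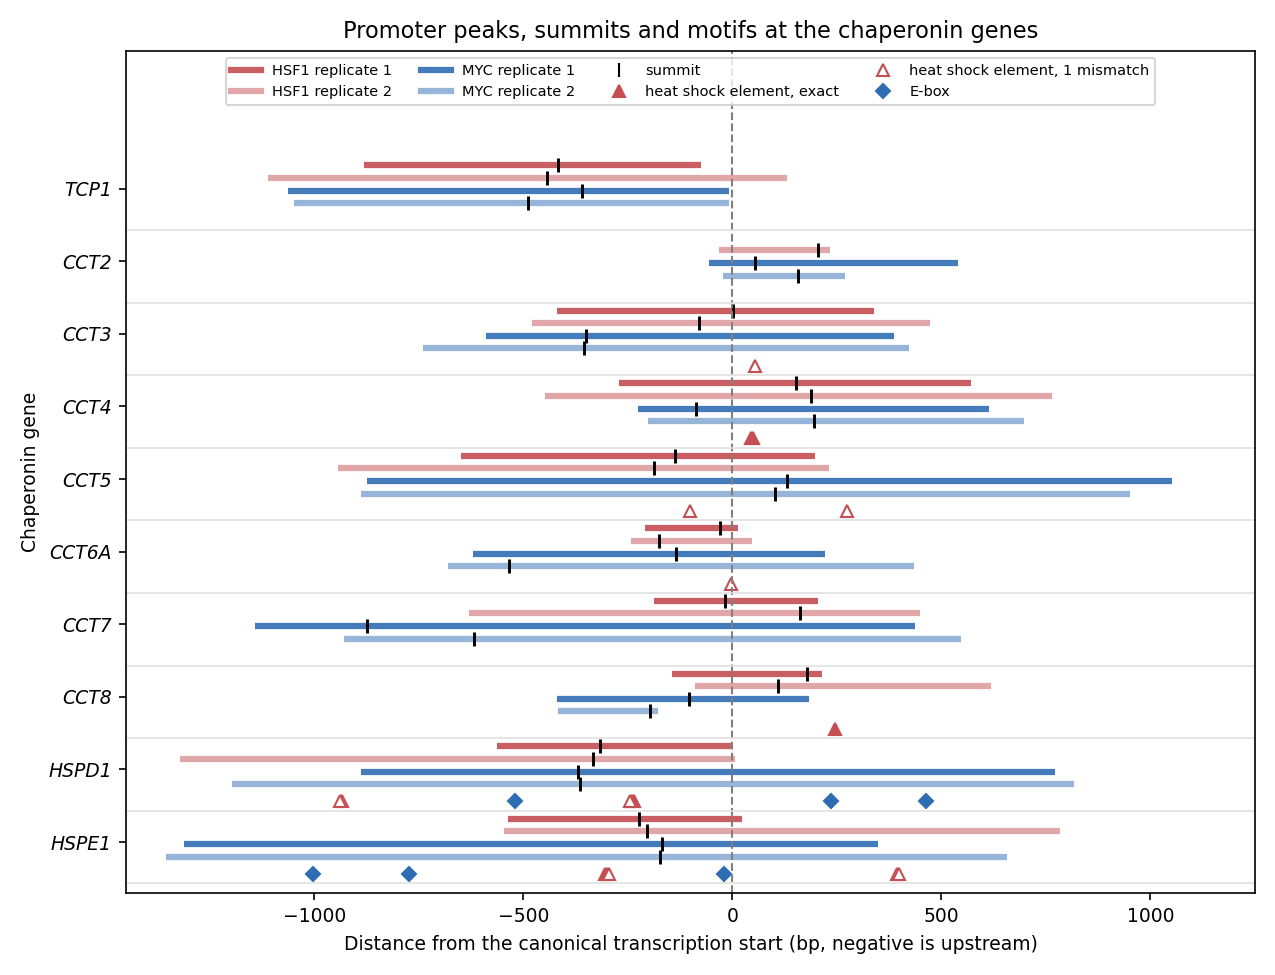
Peaks (bars) and summits (black ticks) of the 4 lists within 1 kb of the canonical start of each chaperonin gene, in bp along the gene. HSF1 is red and MYC blue, with replicate 2 in the paler shade, and triangles and diamonds under the bars of a gene mark heat shock elements and E-boxes. At HSPD1 and HSPE1 the same peaks are drawn from each gene's own start, and at CCT7 the MYC summits lie farthest upstream.

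In all, the windows held 42 distinct peaks of the 4 lists, and 35 of these had their summit within 1 kb of a chaperonin start. HSF1 replicate 2 had both remaining HSF1 peaks, in intron 1 of CCT4 with a fold enrichment of 3.61 and in intron 2 of MRPL18 beside TCP1 with 4.33, and replicate 1 had neither. The other 5 were MYC peaks. MYC replicates 1 and 2 had a peak at the start of MOB4, which lies in the HSPD1 window because the HSPD1 gene record extends past its canonical start, with fold enrichments of 15.4 and 14.0. Both also had one 4170 and 3893 bp upstream of CCT8, with 17.7 and 7.62. MYC replicate 1 had one at the end of CCT6A with 15.4, nearest to the start of SUMF2, and an overlapping peak of MYC replicate 2 with 11.5 lay just past the window. Most chaperonin peaks of both factors were therefore at promoters, and no HSF1 peak elsewhere in these windows was present in both replicates. For all protein-coding genes the comparison is by gene, and the share of all peaks at promoters was not counted. Of all protein-coding genes, 8932 had a reproducible MYC peak in the window and 7091 had its summits within 1 kb of the start. For HSF1 these numbers were 1285 and 488.

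CCT4, the delta subunit, had the highest mean HSF1 fold enrichment of the family, though its pileups were below those of TCP1 and HSPD1/HSPE1 in both replicates. Fold enrichment over IgG was 24.8 in HSF1 replicate 1 and 46.4 in replicate 2, a mean of 35.6 ± 15.3 (SD, n = 2), with pileups of 41 and 74 fragments at the summit. These values were above those of 99.1% and 99.6% of the peaks in their lists. The mean ranked 15th among the 488 protein-coding genes with an HSF1 summit near the start in both replicates. The summits lay 152 and 188 bp into the gene, in coding exon 1, and between 103 and 144 bp from the run of heat shock units. MYC fold enrichment at CCT4 was 17.9 and 18.0, and the 2 lists placed the summit 87 bp upstream and 195 bp downstream of the start. In replicate 2 the HSF1 and MYC summits of CCT4 were 7 bp apart, and in replicate 1 they were 239 bp apart.

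TCP1, the alpha subunit, followed CCT4 by mean, and its HSF1 replicates differed most. Fold enrichment was 13.9 in replicate 1 and 46.6 in replicate 2, a mean of 30.2 ± 23.1 (SD, n = 2), with pileups of 43 and 111. Both values were high in their lists, above 97.2% and 99.6% of peaks. The summits lay 418 and 443 bp upstream of TCP1, about midway to the start of MRPL18, a mitochondrial ribosomal protein gene that is read in the opposite direction from 865 bp away. MYC gave 14.3 and 13.7 here, above 64.9% and 75.2% of its peaks, with summits 359 and 489 bp upstream. The 200 bases around the HSF1 summits are shown because this strong site held no match to the search letters, even with 1 mismatch. They lie about midway between the starts of TCP1 and MRPL18, and the words TCP1 side in their label refer to the strand read. They hold no annotated untranslated region, although 129 of the 200 bases lie in exons of other annotated transcripts, and by canonical transcripts they are between genes.
TCP1 side of the TCP1/MRPL18 promoter, chr6:159789932-159790131, minus strand: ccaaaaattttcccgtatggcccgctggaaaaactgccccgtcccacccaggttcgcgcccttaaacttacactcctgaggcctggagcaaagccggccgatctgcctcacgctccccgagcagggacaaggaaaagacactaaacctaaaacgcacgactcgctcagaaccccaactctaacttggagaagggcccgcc

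The mitochondrial pair HSPD1 and HSPE1, whose canonical starts are 539 bp apart, had the tallest HSF1 pileups of the family. A single HSF1 peak, merged to chr2:197499833-197501162, covered both starts. Its pileups were 104 and 125 fragments and its fold enrichments 15.1 and 20.5, a mean of 17.8 ± 3.77 (SD, n = 2), above 97.5% and 97.0% of the peaks in the lists. By mean fold enrichment the site came after CCT4 and TCP1, and by pileup it was the highest of the family in both HSF1 replicates. The local background differs here. Pileup plus 1, divided by fold enrichment, follows the IgG level under a peak, and it was 6.93 and 6.15 at HSPD1/HSPE1 against 1.54 to 3.34 at the other HSF1 promoter peaks. At CCT4 it was 1.69 and 1.62, and at TCP1 it was 3.16 and 2.41. The part of this background in the order of the sites, CCT4 and TCP1 included, was not tested.

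At HSPD1/HSPE1 the 4 summits lay between the canonical starts. The HSF1 summits were 223 and 205 bp upstream of HSPE1 and the MYC summits 169 and 174 bp upstream of it, so that HSF1 and MYC of the same replicate were 54 and 31 bp apart. The exact heat shock elements were 77 to 100 bp from the HSF1 summits, on the HSPD1 side. MYC had pileups of 65 and 49 and fold enrichments of 16.1 and 10.4, above 74.1% and 49.3% of its peaks. This was the only promoter site of the family with an E-box, CACGTG, in its MYC peak. It held 3, each printed here with the E-box in capitals on the plus strand.
E-box in HSPD1 intron 1, chr2:197499363-197499392: tcggcgcgagccCACGTGtccttctttccg
E-box in HSPD1 intron 1, nearer the start, chr2:197499591-197499620: ggatccgcgtcgCACGTGatggaacccgca
E-box upstream of HSPE1, chr2:197500345-197500374: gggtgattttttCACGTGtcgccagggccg
The nearest of them was 149 and 154 bp from the MYC summits, so none of the 9 promoter sites had an E-box within 100 bp of a MYC summit, as 8.31% of all reproducible MYC peaks did. Over the whole peak, 1 of 9 chaperonin sites held an E-box, against 30.4% of the 11756 reproducible MYC peaks.

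CCT5, the epsilon subunit, had HSF1 fold enrichments of 8.84 and 21.6 (mean 15.2 ± 9.04, SD, n = 2). Its HSF1 summits lay 138 and 188 bp upstream, between CCT5 and the divergent gene ATPSCKMT, a mitochondrial methyltransferase whose start is 392 bp away. MYC fold enrichments at CCT5 were 27.4 and 18.9, with summits 131 and 102 bp into coding exon 1. In both replicates the HSF1 summit thus lay upstream of the start and the MYC summit downstream, 269 and 290 bp apart. The peaks themselves were wider, and the merged peaks of both factors covered the start and overlapped by 1120 bp. The HSF1 summits were 36 and 86 bp from the element with 1 mismatch.

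CCT3, the gamma subunit, had the closest HSF1 replicates of the family in fold enrichment, 14.5 and 14.0 (mean 14.3 ± 0.365, SD, n = 2). The summits were 1 bp inside the start and 80 bp upstream of it. It also had the highest mean MYC signal of the family, with fold enrichments of 31.7 and 17.9 and pileups of 115 and 85. These MYC summits, 349 and 354 bp upstream, were inside the first intron of TSACC, a testis cochaperone gene read the other way from 234 bp upstream. HSF1 and MYC summits of the same replicate were 350 and 274 bp apart, so the MYC signal was centered on the far side of the neighbor's start.

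CCT6A, the zeta subunit, had narrower HSF1 peaks, merged to 290 bp, with fold enrichments of 9.45 and 7.79 and pileups of 15 and 11. The MYC fold enrichments were 31.4 and 16.2. MYC replicate 1 placed the summit 134 bp upstream of CCT6A and replicate 2 placed it 534 bp upstream, in exon 1 of PSPH. PSPH, which encodes the last enzyme of serine synthesis, starts 321 bp from CCT6A in the opposite direction. CCT6A has related copies, and 1 of its 4 annotated pseudogenes, CCT6P1, held a MYC peak in both lists and no HSF1 peak. A search of the 300 bases around the HSF1 summit gave no second match in the genome, and the same held for the other promoter sites except a partial match of 112 bp at CCT8.

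CCT8 and CCT7, the theta and eta subunits, had the lowest mean HSF1 fold enrichments among the sites with peaks in both lists, although in replicate 2 CCT6A was lower than either. HSF1 fold enrichment at CCT8 was 4.81 and 11.3, above 43.3% and 90.4% of peaks, and at CCT7 it was 3.85 and 9.27, above 17.7% and 86.2%. Replicate 1 put both genes among its lower peaks and replicate 2 among its higher ones. At CCT8 the HSF1 summits were 178 and 109 bp inside the gene, and the exact heat shock element, which lay inside the peak of replicate 2 but outside that of replicate 1, was 68 and 137 bp from them. The MYC summits of CCT8 were 103 and 196 bp upstream, with fold enrichments of 13.2 and 6.86. The 2 factors overlapped by 329 bp at CCT8 in replicate 1, but in replicate 2 their peaks were separated by 86 bp. At CCT7 the MYC fold enrichments were 12.6 and 13.2 and the summits lay 875 and 619 bp upstream, nearest to the start of PRADC1, which is 1069 bp from CCT7. The HSF1 summits of CCT7 were 17 bp upstream and 162 bp downstream of its start, so the summits of the same replicate were 858 and 781 bp apart, the largest distances in the family.

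CCT2, the beta subunit, was the only member without a reproducible HSF1 peak. HSF1 replicate 2 had a peak 204 bp inside the gene with a pileup of 12 and a fold enrichment of 3.89, above 13.5% of the peaks in that list, and replicate 1 had none in the window. MYC fold enrichment at CCT2 was 24.4 and 11.4, with summits 55 and 157 bp downstream of the start. Its mean MYC fold enrichment of 17.9 ± 9.25 (SD, n = 2) was above those of TCP1 and HSPD1/HSPE1, but its 2 values overlapped theirs.

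**Figure D3:**
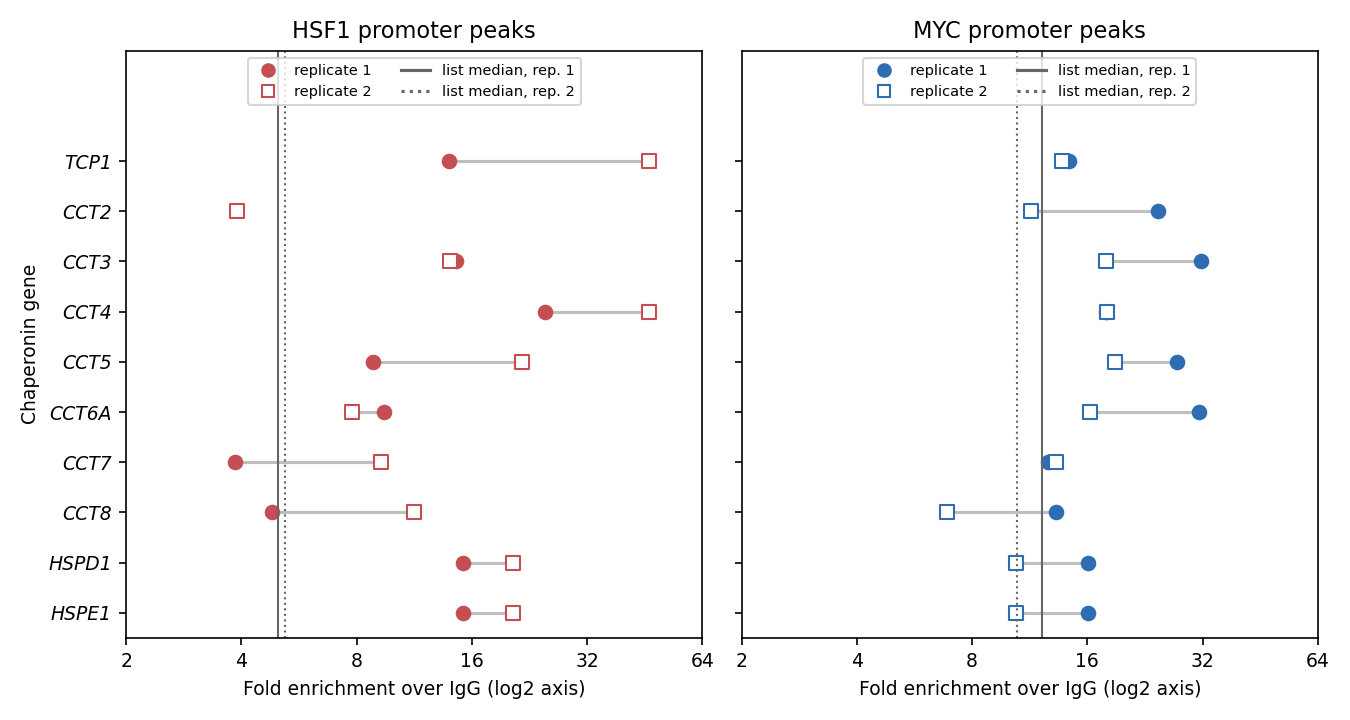
Fold enrichment over IgG (x axis, log2 scale) of the promoter peak of each chaperonin gene, for HSF1 (left) and MYC (right). Filled circles are replicate 1 and open squares replicate 2, gray bars join the replicates, and vertical lines mark the median of all peaks of each list. HSF1 spans 3.85 to 46.6 over the family and MYC spans 6.86 to 31.7.

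Ordered by mean HSF1 fold enrichment, the sites ran CCT4, TCP1, HSPD1/HSPE1, CCT5, CCT3, CCT6A, CCT8 and CCT7. The 2 HSF1 values of CCT4 did not overlap those of any lower site except TCP1. Those of TCP1 reached from 13.9 to 46.6 and overlapped HSPD1/HSPE1, CCT5 and CCT3. Those of CCT5 also overlapped HSPD1/HSPE1, CCT3, CCT8 and CCT7. CCT6A overlapped CCT5, CCT8 and CCT7, and CCT8 overlapped CCT7. By mean MYC fold enrichment the order was CCT3, CCT6A, CCT5, CCT4, CCT2, TCP1, HSPD1/HSPE1, CCT7 and CCT8. Here neighbors in the order overlapped at most steps, and MYC replicate 1 was higher than replicate 2 at most sites. CCT3 thus headed the MYC order and was behind 4 other sites for HSF1, and TCP1 was near the top for HSF1 and behind 5 other sites for MYC.

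The replicates also shifted as sets, counted here by gene, so that the HSPD1/HSPE1 peaks count for both of these genes. HSF1 was higher in replicate 2 at 7 of 9 genes, with a median ratio of replicate 2 to replicate 1 of 1.87, against 1.14 over the 488 genes with promoter peaks in both lists, of which 62.3% were above 1. MYC was higher in replicate 2 at 2 of 10 genes, with a median ratio of 0.649, against 0.745 over 7091 genes, of which 20.2% were above 1. The MYC shift at the chaperonin genes was near that of the whole list. For both factors the library with more fragments, replicate 1 for HSF1 and replicate 2 for MYC, was the one with the lower values at most chaperonin genes, and the part of depth in these shifts was not tested.

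Because the lists differ in depth, each peak was also ranked in its own list. Ranking does not remove the difference in threshold between the factors. The HSF1 lists, called at 1e-04, had median fold enrichments of 5.00 and 5.21, and the MYC lists, called at 1e-10, had 12.2 and 10.5. Weaker peaks thus fill more of the HSF1 lists, and positions of HSF1 and MYC peaks are not directly comparable. The medians here are taken over genes, so the HSPD1/HSPE1 peak counts for each of its 2 genes. In HSF1 the median position was above 97.2% of peaks for 9 genes in replicate 1 and 95.2% for 10 genes in replicate 2. In MYC the medians were 77.2% and 73.8%. Promoter peaks in the top 10% of the list in both HSF1 replicates were present at 6 of 10 genes (TCP1, CCT3, CCT4, CCT5, HSPD1 and HSPE1), against 0.434% of protein-coding genes. HSPD1 and HSPE1 share their peak. For MYC the top 10% rule was met by 1 gene, CCT5, against 3.58%. This rule was chosen after the values were seen, so the contrast only describes these lists. For HSF1 the median of the mean fold enrichment was 15.2 at the 9 chaperonin genes with peaks in both lists, without CCT2, against 6.08 at all 488 genes. For MYC it was 16.0 at the 10 chaperonin genes against 14.1 at all 7091 genes. These medians describe the lists and carry no test.

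**Figure D4:**
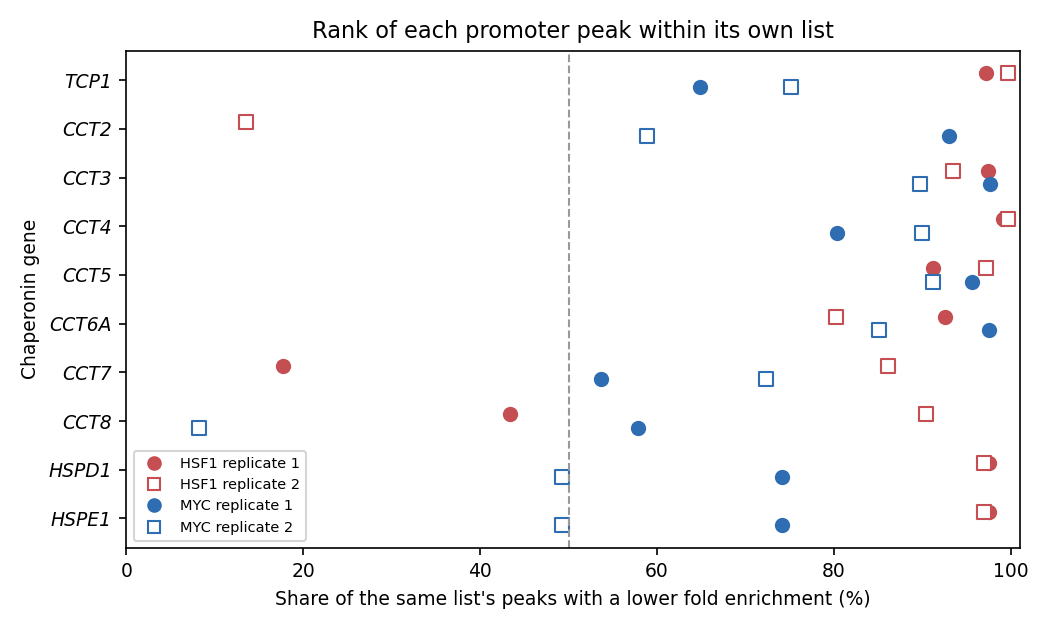
Position of each chaperonin promoter peak within its own list, as the share of that list's peaks with a lower fold enrichment (x axis, percent). Red is HSF1 and blue MYC, with filled circles for replicate 1 and open squares for replicate 2, and the dashed line marks 50%. HSF1 points lie above 90% in both replicates for 6 genes, while CCT2, CCT7 and CCT8 each have a HSF1 point under 50%.

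Many of these promoters are shared with a neighbor. At 6 of 10 genes another protein-coding gene starts on the opposite strand within 1 kb, as it does for 10.0% of protein-coding genes. These are TCP1 with MRPL18, CCT3 with TSACC, CCT5 with ATPSCKMT, CCT6A with PSPH, and HSPD1 with HSPE1, which count as 2 genes. CCT7 and PRADC1 are just outside this limit, and CCT2, CCT4 and CCT8 have no such neighbor by canonical start. At these shared promoters a peak cannot be given to one gene rather than the other.

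Of 30 other genes of the folding pathway, 2 had a reproducible HSF1 peak in the window, beside the 6.41% of all protein-coding genes, and both overlapped MYC, while 21 had a reproducible MYC peak, beside 44.6%. The HSF1 count is near the share of all genes. For prefoldin, which hands unfolded actin and tubulin to TRiC, and its relatives, 1 of 9 genes had HSF1 and 5 of 9 had MYC. The HSF1 peak was at UXT, with fold enrichments of 5.32 and 5.90, though the start nearest to it was that of the antisense gene UXT-AS1, and the highest MYC promoter peak was at URI1, with 31.7 and 23.5. Of the 4 phosducin-like cochaperones of TRiC, 0 had a reproducible HSF1 peak and 3 had MYC, highest at PDCL3 with 29.2 and 17.3. Of 5 chaperonin-like paralogs, 0 had a reproducible HSF1 peak and 2 had MYC, with MKKS at 15.4 and 14.2.

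In the mitochondrial matrix, where HSPD1 and HSPE1 act, 11 of 12 folding and quality control genes had a reproducible MYC peak, beside 44.6% of all protein-coding genes, and 1 had HSF1, near the background of 6.41%. That gene was HSPA9, the matrix HSP70, with HSF1 fold enrichments of 6.70 and 12.1 and summits 153 and 145 bp upstream of its start. HSPA9 also had MYC at 31.0 and 27.0. The highest MYC promoter peak of this group was at LONP1, a matrix protease, with 39.6 and 27.1, and LONP1 had no reproducible HSF1 peak. HSF1 at HSPA9 was lower in both replicates than at HSPD1/HSPE1, and MYC was higher in both.

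Among 409 other protein-coding genes with a promoter summit in all 4 lists, those most like HSPD1/HSPE1 were HSPE1-MOB4, USPL1 and AHSA1, by Euclidean distance over the 4 log2 fold enrichments. HSPE1-MOB4 is a readthrough gene that starts 34 bp from HSPE1 and shares its peaks, at a distance of 0. USPL1, a SUMO protease gene, had fold enrichments of 15.7 and 20.8 for HSF1 and 17.3 and 8.76 for MYC, at a distance of 0.28. AHSA1, an activator of HSP90, had 10.5 and 23.6 for HSF1 and 16.1 and 10.2 for MYC, at a distance of 0.56.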

How the data were processed

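Reads were trimmed by the authors and mapped to GRCh38 (Bowtie 2), and MACS 2.2.9.1 called peaks in each library against 1 IgG library. The headers name it IgG replicate 2 and the labels list 1 unnumbered IgG sample, and whether these are the same library is not given in the sources used here. The authors deposited for each peak the pileup (signal at the summit, whole numbers in all 4 lists), the fold enrichment, a ratio to local IgG, and p-value and q-value columns, both as −log10. The q-value column was not used. Chromosome names match GRCh38 without the prefix, and chromosomes 1 to 22, X and Y were kept.

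Lists were read with Python 3.11.15, pandas 2.3.3 and numpy 2.4.6, sequences with pysam 0.24.0, copies were searched with blastn 2.17.0, and figures drawn with matplotlib 3.10.9. Percentiles cover all peaks of a list. Starts are those of canonical transcripts of GENCODE 44. Lists without read counts were not fitted and no test was run. Values are given by replicate beside all protein-coding genes. The genes and lists were chosen with earlier results of these data known, and the top 10% rule was chosen after the values were seen. All 10 chaperonin genes are named. Of the 30 pathway genes, those with reproducible HSF1 peaks and the highest MYC promoter peak of each group are named, with neighbors of shared promoters and the 3 genes most like HSPD1/HSPE1. LONP1, URI1, PDCL3 and MKKS fall under that rule. The overlap and motif searches were tested on simulated data. In all, 13 alternatives were tried.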

Additional observations from a re-analysis of the deposited data

How the results depend on the processing

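The counts of chaperonin genes with HSF1 (9 of 10), MYC (10 of 10) and overlapping peaks (9 of 10) were recomputed under 8, 8 and 13 alternatives. HSF1 ranged from 7 to 10 genes, with CCT7 and CCT8 lost when HSF1 peaks were held to 1e-10 and CCT2 gained when a peak of either list sufficed and without HSF1 replicate 1. Leaving out 1 replicate gave 9 to 10 genes for HSF1, 10 for MYC and 8 to 10 for the overlap, with CCT8 lost without MYC replicate 1. MYC peaks at 1e-20 left 9 genes for MYC and 8 for the overlap, again without CCT8. Counting only peaks whose nearest start was that of the gene left 8 genes for HSF1, without HSPD1. The same rule moved MYC to 6 genes and the overlap to 5, without CCT3, CCT6A, CCT7 and HSPD1. Requiring the mean summits of the 2 factors to lie within 200 bp moved the overlap to 4 genes, without CCT3, CCT5, CCT6A, CCT7 and CCT8. By construction these rules give a shared promoter to 1 gene and ask for closer summits. No paired analysis was possible because these counts of genes come from no test that could take the replicate number as a block. Summits of HSF1 and MYC were set side by side by replicate number, and the labels do not say that a number marks a shared culture. With 2 lists per factor, a height rests on 2 values, and a peak absent from a list is limited by its depth and threshold.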
